A study of Mus musculus with 8 samples.

Results

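Prostaglandin synthesis, signalling and breakdown was followed through 10 genes: the cyclooxygenases Ptgs1 and Ptgs2, the terminal synthases Ptges, Ptgis, Ptgds and Hpgds, the degrading enzyme Hpgd, and the prostaglandin E2 receptor genes Ptger2, Ptger3 and Ptger4. They were chosen by name, as genes of known function in this pathway, but with earlier results of these data known. All 10 were found among the 20681 rows of the deposited table. Poly-A RNA of mouse knee joints had been sequenced, with 4 control libraries and 4 that are labelled as a knockout of Loxl2, whose product lysyl oxidase-like 2 crosslinks collagen. By the study's design text every mouse carried Acan-Cre and Loxl2 fl/fl alleles, so that the floxed gene is meant to be lost in cells with activity of the aggrecan gene, mainly chondrocytes, and not in the other cells of the joint. The controls are described as vehicle-treated and their library names carry LOXL2wt, while the names of the other 4 libraries carry LOXL2ko. What those animals received in place of vehicle, the age and sex of the mice, and the time of sampling are not given in the sources used here. All 8 library names carry DMM, an abbreviation in common use for surgical destabilisation of the medial meniscus, and the title of the series names post-traumatic injury.

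Prostaglandins are lipid signals made from arachidonic acid, which phospholipases free from membranes. A cyclooxygenase turns it into prostaglandin H2, and a terminal synthase then fixes the end product: prostaglandin E2 by Ptges, prostacyclin by Ptgis, and prostaglandin D2 by Ptgds or Hpgds. The products leave the cell, act on G protein-coupled receptors, and are inactivated after uptake by the dehydrogenase encoded by Hpgd. In joints the pathway is known for its part in inflammation and pain, and cyclooxygenases are the targets of the common anti-inflammatory painkillers.

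Values are normalised read counts, that is, reads per gene divided by a size factor of the library, with mean ± SD and n = 4 per group. Differences are the log2 value of the libraries labelled knockout minus that of the controls, from a limma fit on log2(value + 1), and genes with an adjusted p under 0.05 over all genes tested are referred to as called. The libraries held 13991000 to 17411617 reads assigned to genes. The targeted gene went against its label. Loxl2 read 282, 349, 1135 and 311 in control replicates 1 to 4, against 893, 1468, 960.3 and 1518 in replicates 1 to 4 of the group labelled knockout, so that the groups overlapped and the higher values lay under the knockout label (log2 difference 1.44 ± 0.40 SE, limma adjusted p = 0.0294, exact two-sided permutation p = 0.0857). Leaving out control replicate 1, 2 or 4, or replicate 2 or 4 of the other group, ended that call (adjusted p up to 0.0849), and it was not made by edgeR (adjusted p = 0.0669) or DESeq2 (0.0659). A count over the whole gene is no check of a floxed exon. Whether labels were exchanged was not tested, and an exchange would turn every direction given here, so the groups are named by their labels only. Among the cartilage markers, Acan was at 52.3 to 544 and Col2a1 at 146 to 2721, so chondrocyte transcripts were present in every library, although Matn3 read 0 in control replicate 3.

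Of the 10 genes, 8 were abundant enough to test, that is, they reached 10 or more in 4 or more of the libraries. The inducible cyclooxygenase gene Ptgs2 and the lipocalin-type synthase gene Ptgds were not. As the set was chosen with earlier results of these data known, its counts and median are descriptive only. Among the 8, Ptges, Ptger2 and Ptger4 rose in the libraries labelled knockout and 0 fell, while 23.2% of the 14949 genes tested were called, 11.6% higher and 11.6% lower. For these genes the groups also did not overlap, as they did not for 25.1% of all tested genes, 11.7% higher and 13.4% lower. The median log2 difference of the 8, Ptger2 included, was 1.17, against 0.00 for all genes tested. For the lists of cell type markers given below, it was 1.45 for fibroblasts, 1.26 for macrophages and -0.74 for skeletal muscle. A shift of this size was thus not particular to the prostaglandin genes. Under quantile normalisation none of the 3 was called (limma adjusted p = 0.0646 for Ptges, 0.0790 for Ptger2 and 0.143 for Ptger4). A skeletal muscle score, of whose variance 89.2% lay between the groups, was also used as a covariate. The differences of Ptges and Ptger4 then turned to -0.82 and -0.32, while that of Ptger2 kept its sign at 1.48. With this covariate 0 of all tested genes were called (515 at an unadjusted limma p under 0.05), so that muscle content and group cannot be told apart. Ptger2 entered the test only through the libraries labelled knockout, where it is the higher, so its place among the tested genes is not independent of its difference.

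**Figure D1:**
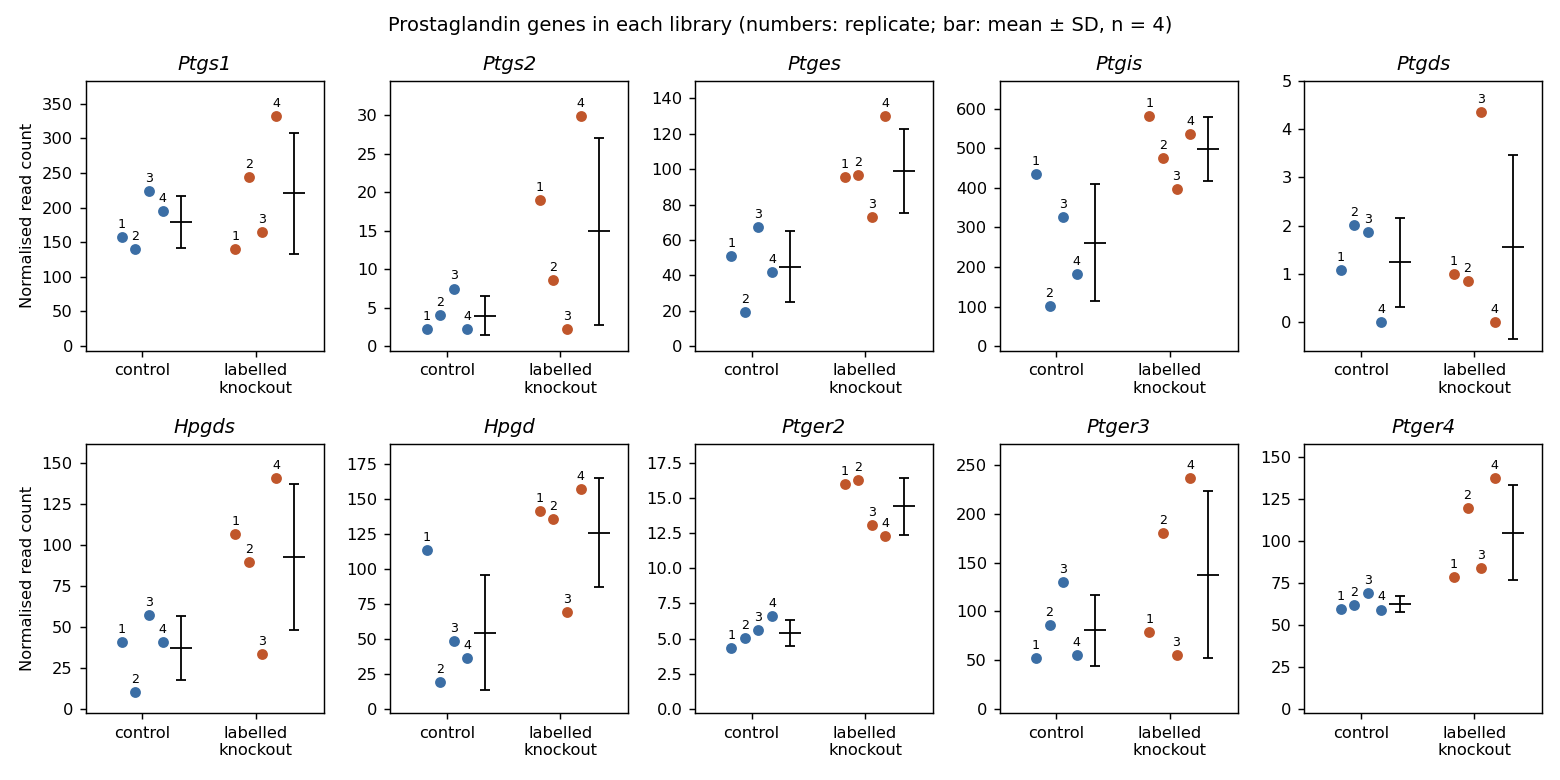
Normalised read count (linear axis) of the 10 prostaglandin genes in each library, controls in blue and libraries labelled knockout in orange, numbered by replicate, with the mean ± SD of 4 libraries beside them. The groups are separate for Ptges, Ptger2 and Ptger4, and control replicate 2 is the lowest control for Ptges, Ptgis, Hpgds and Hpgd.

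The proximal sequences of the 3 genes that were called are shown because these are the members whose rise was called. They are the 250 bases before the RefSeq start (build GRCm38.p6), 5′ to 3′ on the strand of the gene, from a table that matched 9 of the 10 genes. Ptges lies at chr2:30903298-30903547 on the minus strand, Ptger2 at chr14:44987861-44988110 on the plus strand and Ptger4 at chr15:5244188-5244437 on the minus strand. The Ptges window lies inside the span of the gene in the GENCODE annotation (30889471 to 30929863), whose outermost start differs from the RefSeq start. Capitals mark matches, on either strand, to GGGCGG, known as the GC box and read as CCGCCC on the other strand, or to CCAAT, the box of that name.
Ptges: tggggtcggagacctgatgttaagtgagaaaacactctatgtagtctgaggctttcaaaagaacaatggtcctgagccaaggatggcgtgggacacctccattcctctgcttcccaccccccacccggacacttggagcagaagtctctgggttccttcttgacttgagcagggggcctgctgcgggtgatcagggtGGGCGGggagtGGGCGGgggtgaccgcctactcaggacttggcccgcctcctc
Ptger2: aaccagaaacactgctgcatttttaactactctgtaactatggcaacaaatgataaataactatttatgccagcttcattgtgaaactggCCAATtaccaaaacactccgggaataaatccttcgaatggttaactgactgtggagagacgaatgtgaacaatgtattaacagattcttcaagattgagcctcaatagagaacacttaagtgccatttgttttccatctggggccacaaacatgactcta
Ptger4: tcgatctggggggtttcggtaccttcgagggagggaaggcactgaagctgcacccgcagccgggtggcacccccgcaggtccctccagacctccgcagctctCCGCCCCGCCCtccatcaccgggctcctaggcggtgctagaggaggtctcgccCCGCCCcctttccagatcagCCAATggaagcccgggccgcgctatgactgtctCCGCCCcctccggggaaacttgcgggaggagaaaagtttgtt

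The windows differed in composition. Ptger4 had 66.8% G and C and held 4 GC boxes, of which the first and second share 1 base, and 1 CCAAT box. Ptges had 59.6% and held 2 GC boxes, which begin 53 and 42 bases before the start. Ptger2 had only 38% and held 1 CCAAT box and 0 GC boxes. In all 32851 promoter windows of the table the median was 52.4%, and 32.7% held GGGCGG and 33.8% CCAAT. Also searched for on both strands were TATAAA (in 12.4% of all windows), TGACGT (the core of the cAMP response element, 6.47%), CACGTG (E-box, 6.02%) and TGANTCA (AP-1 site, 6.75%), none of which was found in these 3 windows. A match describes letters only.

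The cyclooxygenases catalyse the committed step of the pathway. Ptgs1, the constitutive enzyme (chromosome 2, 36230426 to 36252272), read 158, 140.3, 224 and 195 in control replicates 1 to 4, as against 140.6, 244, 164 and 333 in the libraries labelled knockout. The groups overlapped, although replicates 2 and 4 of the group labelled knockout lay above every control. The log2 difference was 0.24 ± 0.27 (SE), with a 95% interval from -0.36 to 0.83, and it was not called (limma adjusted p = 0.547, exact permutation p = 0.457).

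Ptgs2, the enzyme induced by cytokines and injury (chromosome 1, 150100031 to 150108227), was scarce in every library. It was at 2.16, 4.04, 7.48 and 2.19 in the controls, from 2, 4, 8 and 2 reads. In the libraries labelled knockout it was at 18.9, 8.55, 2.17 and 29.9, from 19, 10, 2 and 34 reads. Replicates 1, 2 and 4 of that group exceeded every control, but replicate 3 was as low as the lowest, so the groups overlapped (exact permutation p = 0.143). Only in a fit without the filter on low values did it get a difference, 1.36 with a 95% interval from -0.16 to 2.88. On these counts neither a severalfold difference nor none was resolved.

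Both cyclooxygenases can be set side by side per kilobase of exon. Per library, Ptgs1 was 35.4 to 105 times Ptgs2 in the controls. The ratio was 8.75, 33.6, 89.0 and 13.1 in replicates 1 to 4 of the group labelled knockout, where each value rests on the few Ptgs2 reads given above. The ranges overlapped, and the constitutive form was the more abundant in 8 of 8 libraries.

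The terminal synthases differed among themselves. Ptges, the inducible microsomal prostaglandin E synthase (chromosome 2, 30889471 to 30929863), read 50.8, 19.2, 67.3 and 41.6 in the controls and 95.7, 96.6, 72.9 and 130.3 in the libraries labelled knockout. Each library of the latter group lay above every control, although replicate 3, the lowest, was close to control replicate 3, the highest. The means were 44.7 ± 20.1 and 98.9 ± 23.6, a log2 difference of 1.23 ± 0.35 (SE, limma adjusted p = 0.0333, exact permutation p = 0.0286, the smallest that 4 against 4 allows). The call did not survive the loss of control replicate 2 (difference 0.88, adjusted p = 0.0511) or control replicate 4 (0.0674), or of knockout replicate 1, 2 or 4 (0.0670, 0.0710 and 0.0975).

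Ptgis, the prostacyclin synthase (chromosome 2, 167191805 to 167240604), read 434, 101, 326 and 183 in the controls and 582, 476, 397 and 537 in the libraries labelled knockout. Control replicate 1 lay above knockout replicate 3, and the other controls lay below all of that group. With means of 261 ± 148 and 498 ± 80.3 the difference was 1.12 ± 0.38 (SE), and it missed the threshold (limma adjusted p = 0.0584, exact permutation p = 0.0571). Without control replicate 1 it was 1.43 (adjusted p = 0.0219) and without control replicate 3 it was 1.296 (0.0468), so its side of the threshold rested on single controls. On the opposite strand 1110018N20Rik overlaps its exons, at 20.9 to 66.8 per library.

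Hpgds, the haematopoietic prostaglandin D synthase known from mast cells and macrophages (chromosome 6, 65117293 to 65144908), read 41.1, 10.1, 57.0 and 40.5 in the controls. In the libraries labelled knockout it read 107, 89.8, 33.7 and 141. Replicate 3 of that group lay below 3 of the 4 controls while the other replicates lay above all of them. The difference of 1.35 ± 0.56 (SE) was not called (limma adjusted p = 0.105, exact permutation p = 0.114), though leaving out knockout replicate 3 brought it past the threshold (1.78, adjusted p = 0.0360). Ptgds, which encodes the lipocalin-type synthase of the same product (chromosome 2, 25466709 to 25470046), had 0 to 2 reads in each control and 0 to 4 in each library labelled knockout. At this depth no difference in Ptgds could be detected, and Hpgds had the higher value of the pair in 8 of 8 libraries.

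Hpgd, the dehydrogenase that inactivates prostaglandins (chromosome 8, 56294585 to 56321043), read 114, 19.2, 48.6 and 36.1 in the controls and 142, 136, 69.6 and 158 in the libraries labelled knockout. It resembled Ptgis in that control replicate 1 was the highest control and lay above knockout replicate 3. The difference was 1.42 ± 0.48 (SE) and just missed the threshold (limma adjusted p = 0.0554, exact permutation p = 0.0571). Without control replicate 1 it was 1.87 (adjusted p = 0.0144), and without knockout replicate 3 it was 1.68 (0.0361). Per kilobase, Ptges stood at 0.192 to 0.593 of Hpgd in the controls and at 0.289 to 0.448 in the libraries labelled knockout, ranges that overlapped. The Ptges transcript was thus below that of Hpgd in 8 of 8 libraries. This does not hold for the prostaglandin E synthase genes Ptges2 and Ptges3, treated below. Their means per kilobase were 153 and 338 in the controls and 109 and 359 in the libraries labelled knockout. The means of Hpgd were 32.3 and 75.0.

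Of the receptors for prostaglandin E2, those encoded by Ptger2 and Ptger4 raise cyclic AMP, and the one encoded by Ptger3 mainly lowers it. Ptger2 (chromosome 14, 44988195 to 45003820) read 4.33, 5.05, 5.61 and 6.57 in the controls and 16.0, 16.2, 13.0 and 12.3 in the libraries labelled knockout. Those values come from 4 to 6 reads per control and from 12 to 19 in the other group, and the groups did not overlap. The log2 difference was 1.27 ± 0.34 (SE, limma adjusted p = 0.0263, exact permutation p = 0.0286). Because only the libraries labelled knockout carried Ptger2 past the abundance filter, its place in the test is not independent of this difference. Ptger2 was no longer called without control replicate 1 (adjusted p = 0.0531) or 2 (0.0634), or without knockout replicate 1 (0.0684), 2 (0.0698) or 4 (0.0550). Gm49364 and Gm17173 are annotated on the opposite strand over its exons, and the use of strand in counting is not given in the sources used here.

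Ptger4 (chromosome 15, 5206661 to 5244187) was the most even of the genes among the controls, at 59.5, 61.6, 69.2 and 59.1. It read 78.8, 119.7, 83.7 and 137 in the libraries labelled knockout, all above the highest control. The means of 62.3 ± 4.67 and 104.9 ± 28.3 gave a difference of 0.71 ± 0.21 (SE, limma adjusted p = 0.0351, exact permutation p = 0.0286). Leaving out control replicate 1 (adjusted p = 0.0679), 2 (0.0781) or 4 (0.0783), or knockout replicate 2 (0.0914) or 4 (0.0988) ended the call. Ttc33 overlaps its exons on the opposite strand and is the more abundant gene, at 534 to 690 per library. The log2 difference of Ttc33 was -0.18 and was not called (limma adjusted p = 0.141). Whether reads of Ttc33 entered the Ptger4 values was not tested.

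Ptger3 (chromosome 3, 157566892 to 157645888) read 51.9, 85.8, 129.9 and 54.8 in the controls and 78.8, 180.5, 55.5 and 237 in the libraries labelled knockout. Both groups were wide, and they overlapped. The difference of 0.63 ± 0.47 (SE), with a 95% interval from -0.40 to 1.67, was not called (limma adjusted p = 0.346, exact permutation p = 0.314).

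Compared per kilobase of exon, the 10 genes differed widely in level. In the controls Ptgis was highest at 102 ± 57.7 normalised reads per kb, followed by Ptgs1 at 46.2 ± 9.69 and Hpgd at 32.3 ± 24.5. Next came Ptger3 (14.2 ± 6.38), Ptges (11.4 ± 5.11), Ptger4 (9.38 ± 0.70) and Hpgds (5.79 ± 3.05), and lowest were Ptger2 (1.04 ± 0.18), Ptgs2 (0.87 ± 0.55) and Ptgds (0.75 ± 0.56). Neighbours in that order overlapped over the 4 controls, except that Ptger4 lay wholly above Hpgds and Hpgds wholly above Ptger2. In the libraries labelled knockout Ptgis again led, at 194 ± 31.3 and wholly above Hpgd at 75.0 ± 23.1, and Ptgs1 followed at 56.7 ± 22.4, wholly above Ptges at 25.2 ± 6.02. Below them the neighbours overlapped.

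**Figure D2:**
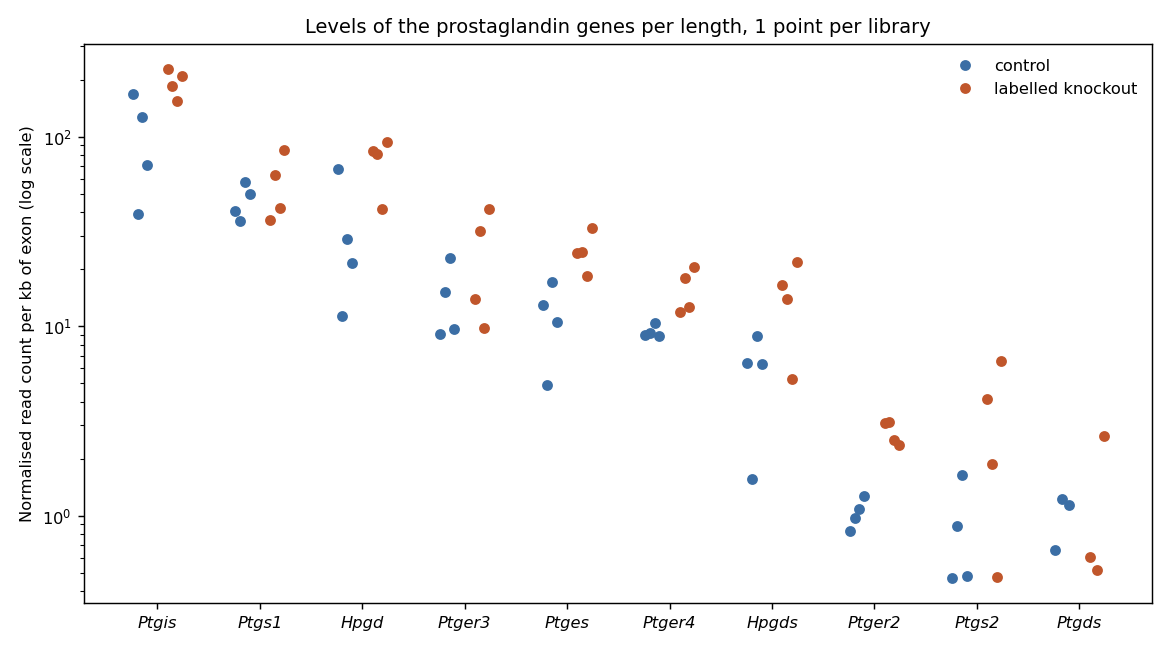
Normalised read count per kilobase of exon (log axis) for each prostaglandin gene, with 1 point per library, in the order of the control means; the 2 libraries with a Ptgds value of 0 are not drawn. Ptgis is the highest in both groups, and Ptger2, Ptgs2 and Ptgds lie lowest.

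The libraries ranked alike for several members. Control replicate 2 was the lowest control for 5 of the 8 tested genes (Ptgs1, Ptges, Ptgis, Hpgds and Hpgd), and control replicate 3 was the highest for 5 (Ptgs1, Ptges, Hpgds, Ptger3 and Ptger4). In the group labelled knockout, replicate 3 was the lowest for 5 (Ptges, Ptgis, Hpgds, Hpgd and Ptger3) and replicate 4 the highest for 6, the exceptions being Ptgis and Ptger2. Summed cell type markers differed between the same libraries. The 10 fibroblast markers, 8 of them called higher and 0 lower, summed to 50436 to 143262 in the controls and 184222 to 291779 in the libraries labelled knockout. Those sums were lowest in control replicates 4 and 2 and, among the libraries labelled knockout, in replicate 3.

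Macrophage markers, with 9 of 10 called higher, summed to 2873 to 6757 and 10034 to 14267, again with control replicate 2 and knockout replicate 3 the lowest of their groups. For skeletal muscle the 10 markers summed to 1785340 to 1908100 in the controls and 896314 to 1250250 in the other group, with 0 called higher and 3 lower. Mast cell markers were scarce, with sums of 56.5 to 151 and 109 to 206, 7 of 8 listed genes in the table, 1 of 4 tested called higher, and Fcer1a under 10 in every library and at 0 in 3. Their part in the differences of Ptges, Ptgis, Hpgds, Hpgd, Ptger2 and Ptger4 was not tested. In a bulk library, more cells of a type and more RNA per cell cannot be told apart.

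The 8 chondrocyte markers summed to 3019 to 7810 in the controls and 8083 to 12357 in the libraries labelled knockout, without overlap. Only 1 was called higher and 0 lower. Comp was the largest part of the sum in every library, at 2565 to 6974 and 5810 to 11075, ranges that overlapped. Acan (52.3 to 544 and 184 to 372) and Col2a1 (146 to 2721 and 658 to 1528) overlapped too, each highest in control replicate 1. The part of these markers in the differences was not tested. The sums of the other lists overlapped between the groups. The 7 platelet and megakaryocyte genes in the table, from cells known for Ptgs1, summed to 356 to 915 in the controls and 306 to 719 in the libraries labelled knockout. The respective ranges were 1389 to 5671 and 1113 to 2707 for 8 neutrophil markers, 5365 to 6985 and 4291 to 8800 for 8 endothelial markers, 1572 to 2279 and 1871 to 2688 for 8 Schwann cell markers, and 16755 to 98968 and 4040 to 42558 for 7 erythroid markers. Of these lists only that of Schwann cells held called genes, 2 higher.

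**Figure D3:**
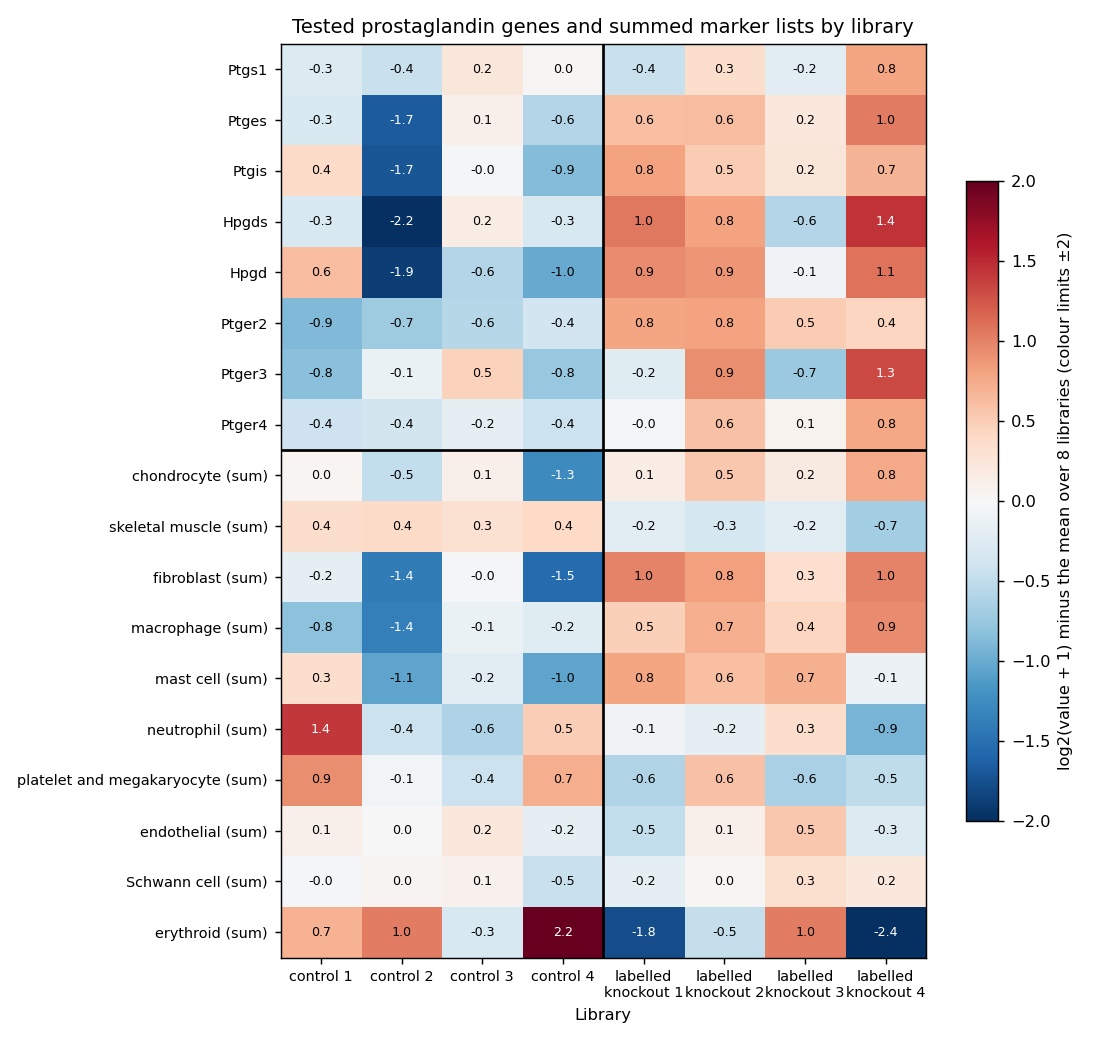
Log2(value + 1) of the 8 tested prostaglandin genes (above the line) and of the summed marker lists (below it) in each library, centred on the mean over 8 libraries; red is higher and blue lower. Control replicate 2 is at -1.66 for Ptges, -1.72 for Ptgis, -2.23 for Hpgds and -1.88 for Hpgd, and its fibroblast and macrophage sums are low as well.

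The tested genes closest in profile to each member were sought among 11646 genes with a mean of at least 50, by the root-mean-square difference of centred log2 values over the 8 libraries. Closest to Ptger4 were Tubb2a (0.09), Npdc1 (0.10) and Vat1 (0.12), and to Ptger2 Fndc4 (0.11), Lncppara (0.18) and Zfp354c (0.21). Ephx1 (0.13), Gas2l1 and Vopp1 (both 0.16) were closest to Ptgs1. For Ptges they were Cers6 (0.16), Ust and Renbp (both 0.18), and for Ptger3 Has1 (0.22), Hhipl1 (0.23) and Mrgprf (0.25). Fkbp11 was the nearest gene to both Ptgis (0.21) and Hpgd (0.27), followed by Bambi (0.24) and Shox2 (0.25) for Ptgis and by Bmp3 (0.28) and Ackr4 (0.29) for Hpgd. Hpgds was nearest to Inhbb (0.24), Cx3cr1 and Gdf10 (both 0.26). Among pairs of members, the closest were Ptgs1 with Ptger4 and Ptges with Ptgis (both 0.30).

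The rest of the pathway was read from lists of further genes, whose counts stand against the 23.2% of all tested genes that were called, 11.6% in each direction. With 4 to 7 tested genes a list, the counts called in either direction were close to that share for phospholipases, remaining receptors and the leukotriene branch. The further synthases (1 higher and 3 lower of 6) and the transport and breakdown genes (2 and 2 of 6) lay above it. No list was tested as a set, and the lists were chosen with earlier results of these data known. Among phospholipases that release arachidonic acid, 7 of 11 listed genes were tested, with 1 called higher, 1 lower and a median difference of -0.14. Pla2g4a, the cytosolic phospholipase that supplies cyclooxygenases, read 18.4, 17.2, 26.2 and 17.5 in the controls and 69.8, 69.3, 34.8 and 63.4 in the libraries labelled knockout. The groups did not overlap, although replicate 3 of each came close to the other, and it rose by 1.504 ± 0.29 (SE, limma adjusted p = 0.00838). Pla2g6, the calcium-independent enzyme, fell from 435 ± 17.2 to 313 ± 23.3 (difference -0.48, limma adjusted p = 0.00888). Neither call was lost when any single library was left out. Pla2g4e (-0.49, limma adjusted p = 0.118) and Pla2g5 (-0.37, adjusted p = 0.547) were not called.

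Of the synthases outside the 10 genes 6 were tested, with 1 called higher, 3 lower and a median of -0.30 (11.6% of all tested genes called in each direction). With scaling on genes other than abundant tissue genes, Ptges2 (limma adjusted p = 0.0571) and Akr1b3 (0.117) were no longer called, which left 1 higher and 1 lower. Tbxas1, the thromboxane synthase, rose from 42.4 ± 11.5 to 82.2 ± 17.5 (0.95 ± 0.26 SE, limma adjusted p = 0.0273). By contrast Ptges2, a second microsomal enzyme able to form prostaglandin E2, fell from 773 ± 70.2 to 549.7 ± 96.4 (-0.50 ± 0.13 SE, limma adjusted p = 0.0214), with groups that overlapped by 1 library (knockout replicate 3). Omitting replicate 2 or 4 of either group ended each of these calls, as did omitting knockout replicate 3 for Tbxas1 and knockout replicate 1 for Ptges2 (adjusted p up to 0.0766), and quantile normalisation for Tbxas1 (0.0740). Akr1b3, an aldose reductase with prostaglandin F synthase activity (-0.36, limma adjusted p = 0.0214), and Fam213b, which encodes a further prostaglandin F synthase (-0.68, adjusted p = 0.0154), also fell. The call of Akr1b3 was lost without control replicate 1, control replicate 2 or knockout replicate 4 (adjusted p up to 0.0650) and under quantile normalisation (0.181). Ptges3, the cytosolic prostaglandin E synthase and co-chaperone (0.08, limma adjusted p = 0.640), and Cbr1, a carbonyl reductase acting on prostaglandins (-0.25, adjusted p = 0.1005), were not called.

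Per kilobase, Ptges amounted to 0.0843, 0.0290, 0.127 and 0.0683 of Ptges2 in the 4 controls and to 0.266, 0.234, 0.136 and 0.324 in the libraries labelled knockout. The ranges did not overlap, and Ptges2 remained the more abundant transcript in 8 of 8 libraries. The summed muscle markers were lower in the libraries labelled knockout, and their part in the falls of Ptges2, Akr1b3, Fam213b and Pla2g6 was not tested.

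Of the remaining prostanoid receptors 4 of 6 were tested, with 1 called higher, 0 lower and a median of 0.48 (11.6% of all tested genes called in each direction). Ptgfr, the receptor for prostaglandin F2-alpha, showed the largest difference of the pathway genes called. It read 26.0, 26.2, 61.7 and 30.7 in the controls and 174, 112, 90.3 and 139.96 in the libraries labelled knockout, which gave 1.86 ± 0.31 (SE, limma adjusted p = 0.00579), and it stayed called whichever library was left out. The prostacyclin receptor gene Ptgir (0.45, limma adjusted p = 0.221) and Ptger1 (0.51, adjusted p = 0.115), the fourth prostaglandin E2 receptor gene, were not called, although the groups did not overlap for Ptger1.

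Transport and breakdown genes were divided, with 2 of 6 called higher and 2 lower, against 11.6% of all tested genes in each direction. Slco2a1, the transporter that takes prostaglandins up for inactivation, read 93.0, 81.8, 128 and 75.6 in the controls and 308, 243, 153 and 179 in the libraries labelled knockout. It rose by 1.19 ± 0.24 (SE, limma adjusted p = 0.0104) and kept its call without any single library. Ptgr1, a reductase downstream of Hpgd, rose by 0.94 (limma adjusted p = 0.0302). Its relatives Ptgr2 (-0.59, limma adjusted p = 0.00960) and Zadh2 (-0.26, adjusted p = 0.0336) fell. Ptgr1 was not called once control replicate 1, 2 or 4, or replicate 2 or 4 of the other group, was left out, and that of Zadh2 without any library but control replicate 3 and knockout replicate 2 (adjusted p up to 0.0974). Under quantile normalisation neither was called (limma adjusted p = 0.0949 for Ptgr1 and 0.0606 for Zadh2), nor was Zadh2 without the filter on low values (0.0553) or with scaling on genes other than abundant tissue genes (0.302). The export pump gene Abcc4 (-0.01, limma adjusted p = 0.957) and the carbonyl reductase gene Cbr3 (0.89, adjusted p = 0.0560) were not called.

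The leukotriene branch, which uses the same arachidonic acid, had 7 of 10 genes tested, with 2 called higher and 0 lower and a median of 0.79. Over all genes tested, 11.6% were called higher and 11.6% lower. Ltc4s, the leukotriene C4 synthase, rose from 12.9 ± 4.53 to 39.8 ± 9.74 (1.58 ± 0.32 SE, limma adjusted p = 0.0102) and was called whichever library was left out. Alox5ap, the activating protein of the 5-lipoxygenase, rose from 62.8 ± 17.6 to 122 ± 35.2 (0.95 ± 0.25 SE, limma adjusted p = 0.0259), a call that ended when replicate 2 or 3 of the controls or 3 or 4 of the other group was left out (adjusted p up to 0.0766) and under quantile normalisation (0.0845). Lta4h, the leukotriene A4 hydrolase (-0.07, limma adjusted p = 0.682), and the lipoxygenase gene Alox12 (-0.94, adjusted p = 0.0572) were not called. Alox5ap and Ltc4s are known from macrophages and mast cells, whose summed markers are given above, and the part of those cells in the rises was not tested.

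**Figure D4:**
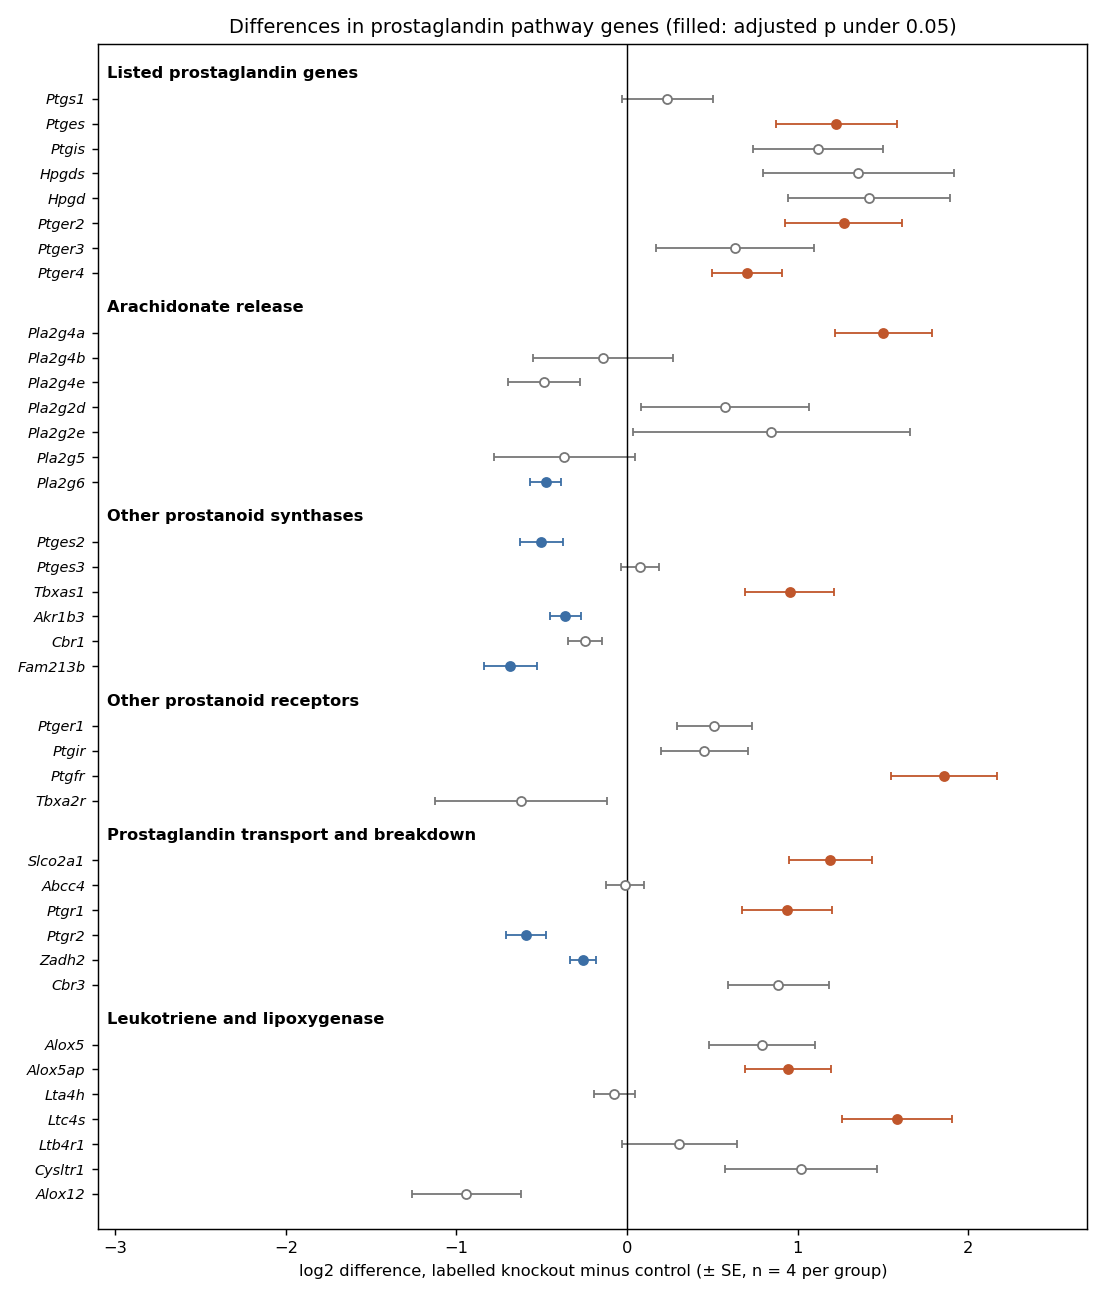
Log2 difference (labelled knockout minus control, ± SE, n = 4 per group) of the tested prostaglandin genes and of the further pathway genes by list; filled points are called at an adjusted p under 0.05, orange higher and blue lower. Ptges, Ptger2 and Ptger4 are called higher, while Ptges2 and Pla2g6 are called lower.

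**Figure D5:**
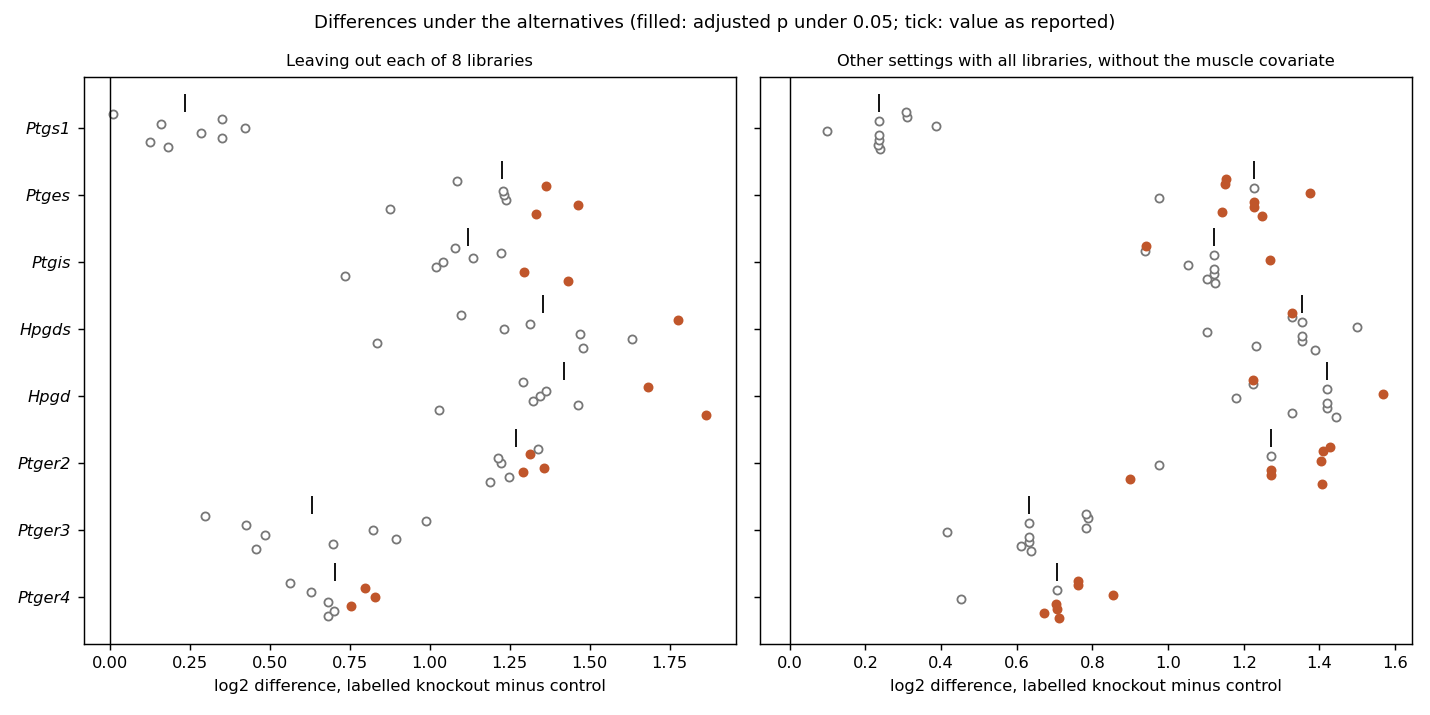
Log2 difference of the 8 tested prostaglandin genes when each library is left out (left) and under the other settings with all libraries except the muscle covariate (right); filled points are called at an adjusted p under 0.05 and the tick is the reported value. All points lie above 0, and each of Ptges, Ptger2 and Ptger4 is called in 3 of the 8 fits that leave out a library.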

How the data were processed

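Poly-A RNA of mouse knee joints was sequenced in 8 libraries. Per the labels and the submitters' processing notes, the authors aligned reads to mm10 with HISAT2, counted them per gene with featureCounts and normalised the counts with DESeq2, so the deposited values are a normalised signal per gene and library. Versions, annotation, strand setting and filters are not given in the sources used here. In each column 100% of the values were whole multiples (tolerance 0.001) of its smallest positive value, from which reads were recovered; in control replicate 2 and knockout replicate 1 that step was 1.01 and 0.997 and says little alone. The 12 library pairs within groups differed beyond counting error (chi-square per degree of freedom 25.8 to 66.1). The labels do not say that libraries came from separate animals beyond their titles, so p-values measure the spread between these samples.

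Genes that reached 10 or more in 4 or more libraries were tested with limma 3.58.1 (trend) on log2(value + 1), with Benjamini-Hochberg adjustment over 14949 genes. Single genes were also compared by exact two-sided permutation over 70 assignments, unadjusted. Alternatives were edgeR 4.0.16 and DESeq2 1.42.0 on recovered reads, other pseudocounts, scalings and covariates, and leaving out each library with the tested genes kept. The tests were also run on simulated counts, which held no shift in tissue content between groups and so do not bear on such a shift. Coordinates and exon lengths are from GENCODE M21 (GRCm38, as mm10), promoters from RefSeq. The members and lists were chosen with earlier results of these data known. All 10 members are named; from each pathway list, called genes and at most 2 of the highest others. The marker lists were chondrocyte, skeletal muscle, fibroblast, macrophage, mast cell, neutrophil, platelet and megakaryocyte, endothelial, Schwann cell and erythroid. Fam213b and Zadh2 are the table's names for Prxl2b and Ptgr3.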

Additional observations from a re-analysis of the deposited data

Results flagged for a closer look

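Among 102 groups of 4 libraries examined (the prostaglandin genes, Loxl2, the tested pathway genes and the summed marker lists, in each group), 5 held a library that stood apart by Dixon's criterion. Chance does this in about 1 of 20, so the number flagged was close to the share that chance gives. In control replicate 3, Loxl2 read 1135, Pla2g4a 26.2 and Ptgfr 61.7, against at most 349, 18.4 and 30.7 in the other controls. Control replicate 2 was high for Zadh2 (833). Knockout replicate 2 was high for the summed platelet and megakaryocyte markers (719, against at most 335 in the other libraries of its group). None of the 10 prostaglandin genes held such a library.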

How the results depend on the processing

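The count of prostaglandin genes called, 3 of 8, was the same with pseudocounts of 0.1 and 5, without the filter, with TMM scaling and with edgeR. It was 0 under quantile normalisation (4 at an unadjusted limma p under 0.05, against 6 in the reported fit), 5 with scaling on genes other than muscle, erythroid and neutrophil markers and the 50 highest genes, 6 with DESeq2 and 0 with the muscle score as a covariate (1 unadjusted); leaving out 1 library gave 0 to 5, with 0 (5 unadjusted) without control replicate 2, knockout replicate 2 or knockout replicate 4. Over all genes, 3461 were called, 1751 to 3841 when 1 library was left out (the largest losses came with control replicates 2 and 4, at 1887 and 2194, and knockout replicate 4, at 1751). The scaling on other genes moved the median difference of all genes to 0.15 and the share of higher calls from 50.04% to 77.8%, and with it Ptges2, Akr1b3 and Zadh2 were no longer called (adjusted p 0.0571, 0.117 and 0.302). DESeq2 called Ptgis, Hpgds and Hpgd (adjusted p 0.0330, 0.0329 and 0.0331). With the replicate block 2018 genes and 0 prostaglandin genes were called (6 unadjusted), and Ptges2, Tbxas1, Zadh2 and Loxl2 were not called either (adjusted p 0.0600, 0.0560, 0.0932 and 0.0513); same-numbered libraries had deviations correlated at 0.21, -0.12, -0.23 and -0.06, so the numbers are not shown to pair samples. The muscle score, of whose variance 89.2% lay between the groups, left 0 genes called (515 at an unadjusted p under 0.05) and reversed Ptgs1 (-1.44), Ptges (-0.82), Ptgis (-0.64), Hpgds (-2.52), Hpgd (-1.39), Ptger3 (-2.04), Ptger4 (-0.32), Pla2g4e (0.71), Ptges2 (0.10), Fam213b (0.35), Ptges3 (-0.0075), Cbr1 (0.0559), Ptgir (-0.62), Ptgr1 (-0.0919), Abcc4 (0.42) and Cbr3 (-0.55). Differences near 0 also changed sign for Ptges3 without knockout replicate 2 (-0.011), for Lta4h with scaling on other genes (0.0759), and for Abcc4 with that scaling (0.14) and when any of control replicates 2 to 4 or of knockout replicates 2 and 4 was omitted, its range over the 8 omissions being -0.0770 to 0.0364. For edgeR and DESeq2 the recovered reads of 2 libraries rest on a step near 1. Depth limited Ptgs2, Ptgds and Ptger2 most.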

Other observations

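Several pathway genes below the abundance filter had few reads. Akr1c18, a hydroxysteroid dehydrogenase gene, read 0, 0, 2.80 and 2.19 in the controls and 6.98, 3.42, 15.2 and 11.4 in the libraries labelled knockout, without overlap. Alox15, a lipoxygenase gene, stood at 103 in knockout replicate 3 and at 0 to 3.24 in the other 7 libraries. Cysltr2, a leukotriene receptor gene, read 1.87 to 7.67 in the controls and 6.16 to 18.5 in the other group. Ptgdr2, a prostaglandin D2 receptor gene, read 13.0 in control replicate 1 and at most 4.04 elsewhere. These genes were named after their values had been seen.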
